A study of Mus musculus with 2 samples.

Results

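The Hedgehog pathway genes Shh, Ptch1, Smo, Hhip, Gli1, Gli2 and Gli3 were described across the cell classes of fetal mouse lung on gestation day 18. These 7 genes were taken by name from the 32285 gene features of each library, and all 7 had unique molecular identifiers (UMIs, counted RNA molecules) in both. Nuclei were profiled with a kit that reads RNA and accessible chromatin from the same nucleus. Wild-type C57BL/6J mothers of the OVA group had received 100 µg ovalbumin (OVA) in alum at each of repeated sensitizations. They were then given repeated intranasal doses of 500 µg OVA each between day 4 and day 17 of gestation. Mothers of the PBS group, also wild-type C57BL/6J, had received alum and PBS on the same schedule. There was 1 library per group, each from 1 dam, with lungs of 9 fetuses (PBS) or 8 fetuses (OVA) pooled. The values therefore compare 2 libraries and have no replicate check, and every interval is a 95% interval for counting error only.

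In the developing lung the epithelium secretes Sonic hedgehog, encoded by Shh. The ligand binds Patched 1 (Ptch1) on neighbouring mesenchymal cells, which releases Smoothened (Smo) from repression. The zinc finger factors Gli1, Gli2 and Gli3 then carry the signal to the nucleus. Ptch1, Hhip and Gli1 are themselves classical targets of the pathway, and Ptch1 and Hhip proteins hold the ligand back. The pathway is known for its role in branching of the airways and in the growth and differentiation of the lung mesenchyme.

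The PBS library held 11473351 gene UMIs in 8019 barcodes and the OVA library 13774959 in 5960, of which mitochondrial genes took 45.2% and 29.2%. After filtering, 4262 PBS and 4995 OVA nuclei remained, with medians of 1112 and 1820 UMIs, and the libraries shared 54 barcodes. Group 2 innate lymphoid cells (ILC2s), CD45+ cells and EpCAM+ cells had been sorted before nuclei were isolated. The methods of the study do not say how, or in what proportions, they were combined. The methods of the study give these gates for fetal lung, whereas its account of the chromatin data also names sorted fibroblasts at the fetal stage, and 1698 PBS and 1872 OVA nuclei carried stromal markers. Epithelial nuclei numbered 770 and 663, and immune nuclei 1762 and 2412. The 9 stromal lineage markers summed to 6911 and 8280 UMIs per 1000000 gene UMIs of the same nuclei (CPM) in stromal nuclei of the PBS and OVA library, against 608 and 565 CPM in epithelial and 335 and 250 CPM in immune nuclei. The 9 epithelial lineage markers summed to 1638 and 2124 CPM in epithelial nuclei against 68.2 and 26.7 CPM in stromal nuclei, and no marker of either list was at 0 in any of these sums. A cluster carries a cell type name with "-like" where its markers reached the limits set for a name, and 4 stromal clusters that fell short are called by their leading genes. Nuclei of the PBS library and of the OVA library are written PBS and OVA below, and where a pair of values stands together PBS comes first. All 7 genes were left out of the clustering.

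Of the 7 genes, 5 had a promoter in the RefSeq table used here (GRCm38.p6), and 3 of these are shown because their chromatin separated the lineages differently. The stretches are the 250 bases before the gene start, read 5′ to 3′ along the gene, with CpG dinucleotides in capitals. The Gli2 stretch (chr1:119053620-119053869, minus strand) and the Hhip stretch (chr8:80058009-80058258, minus strand) lay wholly inside a peak of both libraries that was more accessible in stromal nuclei. Of the Ptch1 stretch (chr13:63565736-63565985, minus strand), 70 bases lay in PBS peaks and 60 in OVA peaks, and those peaks were about equally open in epithelium and stroma.
Gli2: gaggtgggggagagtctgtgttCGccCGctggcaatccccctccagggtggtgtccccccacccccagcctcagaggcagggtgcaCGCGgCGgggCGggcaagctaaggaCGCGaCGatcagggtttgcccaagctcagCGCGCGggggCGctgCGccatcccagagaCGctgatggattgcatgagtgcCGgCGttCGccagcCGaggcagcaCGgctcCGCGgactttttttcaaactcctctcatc
Hhip: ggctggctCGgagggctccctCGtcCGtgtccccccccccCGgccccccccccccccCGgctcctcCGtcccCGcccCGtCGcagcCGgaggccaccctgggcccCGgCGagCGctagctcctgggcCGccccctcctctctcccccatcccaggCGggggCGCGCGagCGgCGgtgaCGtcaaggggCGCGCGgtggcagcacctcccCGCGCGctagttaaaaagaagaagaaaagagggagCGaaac
Ptch1: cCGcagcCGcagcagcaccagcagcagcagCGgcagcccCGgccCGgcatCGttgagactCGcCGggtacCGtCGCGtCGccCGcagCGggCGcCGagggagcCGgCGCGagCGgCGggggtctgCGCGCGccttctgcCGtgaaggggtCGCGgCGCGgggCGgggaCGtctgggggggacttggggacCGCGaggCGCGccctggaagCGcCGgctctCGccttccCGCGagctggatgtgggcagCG
The Ptch1 stretch held 41 CpGs, the Hhip stretch 28 and the Gli2 stretch 22, against a median of 6 and a 90th percentile of 25 over 32851 promoters of the same length. Gli3 had 34 and Smo 15. The motif GACCACCCA, a consensus for Gli factors, was searched on both strands and was found in 0 of the 5 stretches and in 0.225% of all promoters. Its shorter core CCACCCA, which the longer motif contains, was found in 0 of 5 and in 8.11% of all.

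Most UMIs of Shh, the ligand, came from epithelial nuclei, with 58 of 74 in PBS and 78 of 101 in OVA over all nuclei kept. The level was highest in alveolar type 1 (AT1)-like nuclei, the flat gas-exchange cells. The gene lies on the minus strand of chromosome 5 (chr5:28456815-28467256, GRCm38) and spans 10.4 kb. AT1-like nuclei held 32 Shh UMIs in PBS, or 65.6 CPM (44.9 to 92.6), and 47 in OVA, or 59.5 CPM (43.7 to 79.1). Alveolar type 2 (AT2)-like nuclei, which make surfactant, held 20 and 19 UMIs, or 19.6 CPM (12 to 30.3) and 18.6 CPM (11.2 to 29.1). The AT1-like level was thus 3.35-fold the AT2-like level in PBS (log2 ratio 1.74, 0.89 to 2.63) and 3.2-fold in OVA (1.68, 0.88 to 2.53). Both intervals left out equality, although neither comparison reached the 100 UMIs set for a call. Club-like nuclei, airway secretory cells, gave 4 UMIs in 36 PBS nuclei and 2 in 19 OVA nuclei, and Ciliated-like nuclei gave 2 in 30 and 10 in 21, too few to be placed between AT1-like and AT2-like nuclei.

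In stromal and immune nuclei Shh was close to the limit of detection. The stromal nuclei held 2 UMIs in PBS and 5 in OVA, or 0.954 and 1.26 CPM, all in Fibroblast-like nuclei. The other 5 stromal classes held 0 UMIs, which at a limit of 3 counts allows from 6.68 to 27.5 CPM in PBS and from 5.91 to 15.7 CPM in OVA, depending on the class. Epithelial Shh was 33.5 CPM (25.5 to 43.3) in PBS and 34.9 CPM (27.6 to 43.6) in OVA, so stromal nuclei were lower by 35.2-fold (log2 ratio -5.14, -8.21 to -3.22) and 27.7-fold (-4.79, -6.46 to -3.51). With every nucleus reduced at random to 500 UMIs of nuclear genes, a Shh UMI was seen in 2.38% of AT1-like nuclei (0.652% to 5.98%) in PBS and 3.02% (1.31% to 5.86%) in OVA. The share was 0.852% and 0.352% in AT2-like nuclei. In immune nuclei, which should lack Shh, it was 0.0897% and 0.0479%, and the stromal shares of 0.0923% and 0.114% lay near these and are read as background. Without thinning, the AT1-like shares were 10.3% at a median of 1025 UMIs and 12.9% at 1800, and the immune shares 0.114% at 1192 and 0.0415% at 1769. The unnamed cluster led by the haemoglobin genes Hbb-bs and Hba-a1, which also carried endothelial markers, held 12 of the PBS and 17 of the OVA Shh UMIs, or 29.3 CPM (15.2 to 51.3) and 24.6 CPM (14.4 to 39.5). A Shh UMI was seen there in 6 of 23 PBS nuclei (26.1%, at a median of 5574 UMIs) and 5 of 34 OVA nuclei (14.7%, at 2180), and after thinning in 0 of 20 and 0 of 28, with intervals up to 16.8% and 12.3%. The cluster belonged to no lineage compared here, and its second strongest lineage list was the epithelial one.

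**Figure D1:**
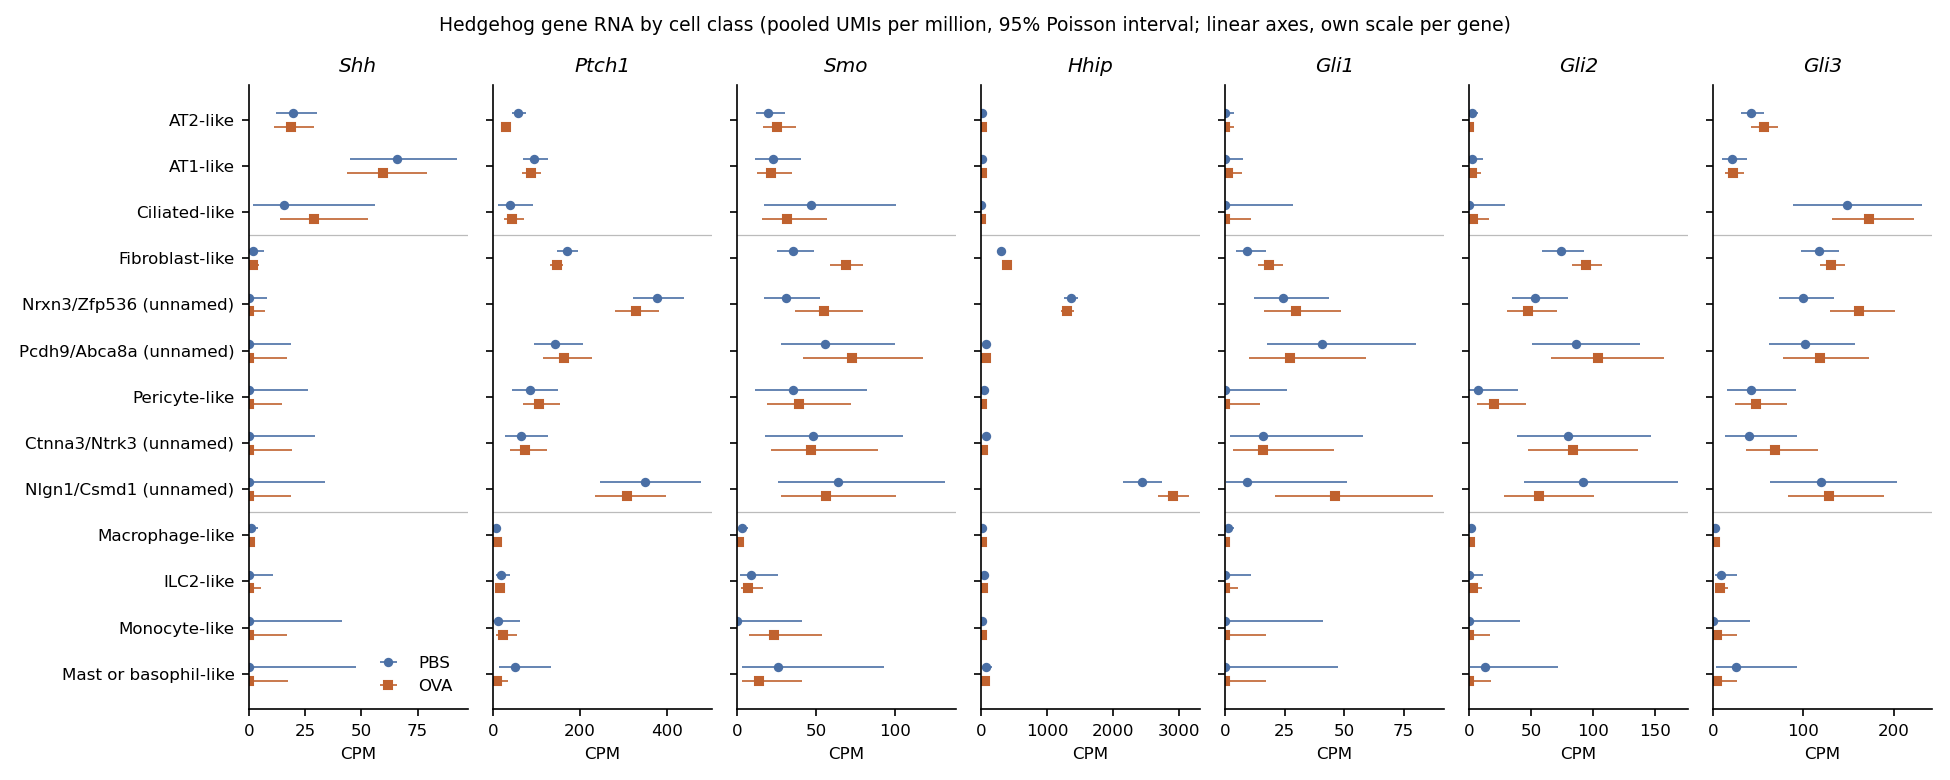
Levels of the 7 genes by cell class, as UMIs pooled over nuclei (CPM, linear axis with its own scale for each gene), for PBS (circles) and OVA (squares). Bars are 95% Poisson intervals, and grey lines separate epithelial, stromal and immune classes. Club-like and Mesothelial-like nuclei and immune classes under 50 nuclei in either library are not shown. The cluster led by Hbb-bs and Hba-a1 is also left out. Among the classes shown, Shh stands highest in AT1-like nuclei, and Hhip in the stromal clusters led by Nlgn1 and Csmd1 (2436 and 2910 CPM) and by Nrxn3 and Zfp536 (1361 and 1307 CPM).

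Ptch1, the ligand's receptor, was highest in the stroma but was also read in alveolar epithelium. The gene lies at chr13:63508328-63573598 on the minus strand, and the start used for its promoter falls inside that span. The cluster led by Nrxn3 and Zfp536, 411 PBS and 300 OVA nuclei whose smooth muscle and myofibroblast marker scores were too close for a name, held 376 CPM (322 to 438) and 327 CPM (279 to 381). The small cluster led by Nlgn1 and Csmd1, with 46 and 80 nuclei, stood at 348 CPM (246 to 478) and 307 CPM (235 to 396). Fibroblast-like nuclei held 169 CPM (146 to 196) and 146 CPM (131 to 161). The cluster led by Nrxn3 and Zfp536 exceeded Fibroblast-like nuclei by 2.22-fold in PBS (log2 ratio 1.15, 0.84 to 1.46) and 2.25-fold in OVA (1.17, 0.90 to 1.43).

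In alveolar epithelium Ptch1 followed the same order as Shh. AT1-like nuclei held 94.3 CPM (69 to 126) and 86.1 CPM (66.9 to 109), and AT2-like nuclei 57.8 CPM (44 to 74.6) and 29.4 CPM (19.8 to 41.9). The log2 ratio of AT1-like over AT2-like was 0.70 (0.12 to 1.29) in PBS and 1.55 (0.91 to 2.22) in OVA. Macrophage-like nuclei gave 7.44 and 8.52 CPM. Stromal Ptch1 was 3.22-fold epithelial Ptch1 in PBS and 3.34-fold in OVA. The summed stromal markers given above were also present in epithelial nuclei, and their part in the epithelial Ptch1 level was not tested.

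Smo (chr6:29735503-29761365, plus strand), the transducer that Ptch1 represses, was read in all stromal classes and at lower levels in epithelium. Stromal nuclei held 81 UMIs in PBS, or 38.6 CPM, against 22.5 CPM in epithelial nuclei, a log2 ratio of 0.78 (0.21 to 1.37) that did not reach 2-fold. In the OVA library the stromal level was 63.7 CPM against 24.6 CPM, a log2 ratio of 1.37 (0.95 to 1.82). Over the stromal classes of at least 50 nuclei Smo ran from 31.2 to 55.9 CPM in PBS and from 39.2 to 72.6 CPM in OVA, and no neighbours in that order differed beyond counting error. AT1-like nuclei (22.5 and 21.5 CPM) and AT2-like nuclei (19.6 and 25.5 CPM) overlapped in their intervals.

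Hhip, which encodes a membrane protein that binds and sequesters Hedgehog ligands, covered a wide range of levels among stromal classes. It lies at chr8:79965851-80058006 on the minus strand. The cluster led by Nlgn1 and Csmd1 held 2436 CPM (2152 to 2747) in PBS and 2910 CPM (2676 to 3159) in OVA. The cluster led by Nrxn3 and Zfp536 held 1361 CPM (1255 to 1473) and 1307 CPM (1209 to 1410). Fibroblast-like nuclei followed at 296 CPM (264 to 330) and 398 CPM (374 to 423). The cluster led by Pcdh9 and Abca8a stood at 81.3 and 72.6 CPM, that led by Ctnna3 and Ntrk3 at 72 and 26.2 CPM, and Pericyte-like nuclei at 42.4 and 15.7 CPM, each overlapping the next in its interval. Among immune classes, Mast or basophil-like nuclei gave 77.2 and 51.7 CPM from 6 and 11 UMIs, and ILC2-like nuclei 47.2 CPM (27 to 76.6) and 29.8 CPM (18.5 to 45.6) from 16 and 21 UMIs. Mesothelial-like nuclei, the lining of the lung surface, numbered only 9 and 14 and gave 30 and 35 Hhip UMIs, or 1607 CPM (1085 to 2295) and 825 CPM (575 to 1147).

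The order of Hhip held at equal depth for the clusters led by Nlgn1 and Csmd1 and by Nrxn3 and Zfp536 and for Fibroblast-like nuclei. Lower classes did not all keep their order. In PBS the thinned share was 2.61% (0.541% to 7.43%) in the cluster led by Pcdh9 and Abca8a. It was 5.45% (1.14% to 15.1%) in that led by Ctnna3 and Ntrk3. At 500 nuclear-gene UMIs per nucleus, 80.4% (66.1% to 90.6%) and 71.2% (60% to 80.8%) of nuclei in the cluster led by Nlgn1 and Csmd1 had a Hhip UMI. The cluster led by Nrxn3 and Zfp536 had one in 53.5% (47% to 59.9%) and 55.2% (49% to 61.2%) of nuclei. Fibroblast-like nuclei had one in 15.6% (12.7% to 18.8%) and 16.7% (14.5% to 19%), and immune nuclei in 2.15% and 1.53%. The shares in epithelial nuclei, 1.2% and 1.19%, were at or below those in immune nuclei. Some immune classes gave Hhip UMIs, as listed above, so immune nuclei are no blank for this gene. Whether the epithelial shares are background was not tested. This thinning left out 168 of 411 PBS and 30 of 300 OVA nuclei of the cluster led by Nrxn3 and Zfp536, and the unthinned shares there were 61.6% and 70.7%.

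Within Fibroblast-like nuclei, Hhip also differed between clusters. The Fibroblast-like cluster led by Col25a1 and Cemip held 450 and 453 CPM of Hhip, that led by Bmp8a and Mfap4 held 258 and 268 CPM, and that led by Wnt2 and Bmp8a held 188 and 199 CPM. These clusters took different shares of the libraries, with 120 PBS and 616 OVA nuclei in the first, 442 and 484 in the second, and 352 and 71 in the third. Ptch1 had the same order as Hhip in the first and second of these clusters. It stood at 223 CPM (173 to 283) and 160 CPM (142 to 179) in that led by Col25a1 and Cemip. In that led by Bmp8a and Mfap4 it stood at 155 CPM (123 to 193) and 118 CPM (94.1 to 147). The intervals of the single sums overlapped, and the ratio between these clusters was not computed. Hhip in the cluster led by Nrxn3 and Zfp536 exceeded that in all Fibroblast-like nuclei by 4.6-fold in PBS and 3.28-fold in OVA. Ptch1 and Hhip were at least 2-fold higher there in both libraries, 2 of the 4 members with at least 100 UMIs in each, at a background of 8.65% of genes in PBS and 8.13% in OVA. Gli2 had a log2 ratio of -0.48 (-1.20 to 0.20) and -0.99 (-1.66 to -0.39) in the same comparison, and Gli3 of -0.23 (-0.75 to 0.28) and 0.30 (-0.068 to 0.65). Gli1 was at 24.5 and 29.6 CPM in the cluster led by Nrxn3 and Zfp536 against 9.3 and 18.4 CPM in Fibroblast-like nuclei, from 11, 15, 10 and 48 UMIs.

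The Gli factors were read in different sets of classes. Gli1 (chr10:127329882-127341974, minus strand), itself a transcriptional target and an activator, gave 32 stromal UMIs in PBS and 81 in OVA, or 15.3 and 20.4 CPM, against 0 and 1 in epithelial nuclei. With 0 epithelial UMIs, the PBS stromal level was at least 8.8-fold higher, taking a limit of 3 counts for the epithelial sum. With lineages gated per nucleus by their markers, in place of by cluster, the Gli1 log2 ratio was 0.44 in PBS and 0.91 in OVA. A sum of 0 was again set to 3 counts there, so such values can be lower bounds. The UMIs behind them are not given here. Pericyte-like nuclei also had 0 Gli1 UMIs in both libraries, which allows up to 21.2 and 11.8 CPM. Gli2 (chr1:118834132-119053619, minus strand), the main activator of the pathway in many tissues, gave 142 stromal UMIs in PBS and 324 in OVA, or 67.7 and 81.6 CPM, against 3 UMIs in epithelial nuclei of each library. The stromal level was 39.1-fold (log2 ratio 5.29, 3.71 to 7.58) and 60.8-fold (5.93, 4.37 to 8.21) the epithelial level. The Gli2 log2 ratio was 2.63 and 3.52 with the gate per nucleus, and 2.95 in PBS with at most 20% mitochondrial UMIs. With 3 epithelial UMIs in the main sums, these values too can be lower bounds. Gli2 was lower in Pericyte-like nuclei, at 7.06 and 19.6 CPM, than in Fibroblast-like nuclei, at 74.4 CPM (59 to 92.6) and 94.2 CPM (82.7 to 107).

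Gli3 (chr13:15463235-15730026, plus strand), whose processed form is a repressor, was the factor that epithelium shared with stroma. Stromal nuclei held 103 and 126 CPM and epithelial nuclei 43.9 and 60.9 CPM, a log2 ratio of 1.22 (0.84 to 1.62) and 1.05 (0.77 to 1.33). Of the epithelial Gli3 UMIs, 19 of 76 in PBS and 60 of 136 in OVA came from Ciliated-like nuclei. AT2-like nuclei held 42.2 CPM (30.5 to 56.8) and 55.8 CPM (42.3 to 72.3), above AT1-like nuclei at 20.5 CPM (9.83 to 37.7) and 21.5 CPM (12.5 to 34.5), the reverse of the order of Shh. The log2 ratio of AT1-like over AT2-like was -1.04 (-2.20 to -0.025) and -1.37 (-2.25 to -0.57), with fewer UMIs than the 100 set for a call. Ciliated-like nuclei, numbering only 30 and 21, stood at 148 CPM (88.9 to 231) and 173 CPM (132 to 223), which overlapped the stromal classes. A Gli3 UMI was seen in 9 of 30 and 13 of 21 of these deep nuclei, whose median counts were 3996 and 8493 UMIs.

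Every member other than Shh is called a response gene here. Of these, only Ptch1, Hhip and Gli1 were named above as targets, so the term names a set and not a measured response. Across lineages the RNA of this set stood on the stromal side. Ptch1, Hhip, Gli2 and Gli3 were at least 2-fold higher in stromal than epithelial nuclei in both libraries, which is 4 of the 5 response genes with at least 100 UMIs in each. The background was 15.8% of 4841 genes tested in both libraries, and 14.7% were at least 2-fold lower. Gli3 was near the limit, and after thinning to equal depth its log2 ratio in PBS was 0.75, under 2-fold. Smo passed in OVA only, and the change in its ratio between libraries was not tested. Gli1 and Shh had too few UMIs for a call.

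**Figure D2:**
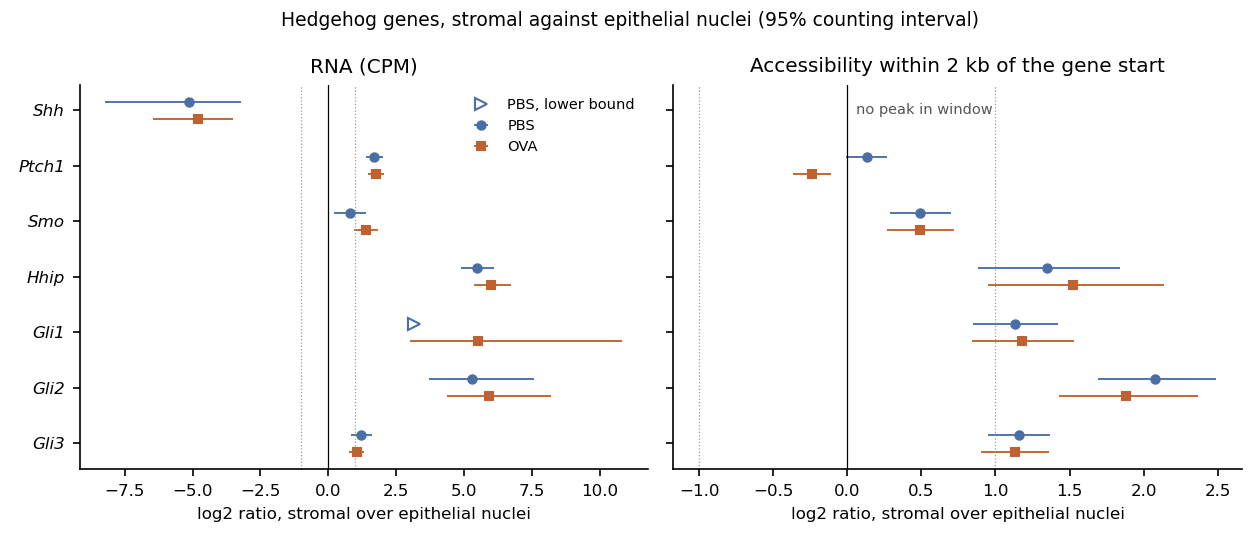
Log2 ratio of stromal over epithelial nuclei for RNA (left) and for accessibility of peaks within 2 kb of the gene start (right), for PBS (circles) and OVA (squares), with 95% counting intervals. Dotted lines mark 2-fold, and the open triangle is a lower bound for Gli1 RNA in PBS. Shh RNA lies far to the left (-5.14 and -4.79), and Ptch1 is the response gene with stromal RNA (1.69 and 1.74) but near-equal promoter accessibility (0.13 and -0.24).

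Chromatin at the gene starts separated the lineages for Gli1, Gli2, Gli3 and Hhip. Transposition events in peaks within 2 kb of a gene start were counted per 1000000 events in all peaks of the same nuclei (peak CPM). Gli2 stood at 35.1 peak CPM in stromal and 8.33 in epithelial nuclei of PBS, and at 32.6 and 8.83 in OVA, log2 ratios of 2.08 (1.69 to 2.49) and 1.88 (1.43 to 2.37). Hhip had log2 ratios of 1.35 (0.88 to 1.84) and 1.52 (0.95 to 2.14), Gli1 of 1.13 (0.85 to 1.42) and 1.18 (0.84 to 1.53), and Gli3 of 1.16 (0.95 to 1.37) and 1.13 (0.90 to 1.36). These 4 of the 6 response genes passed 2-fold in both libraries, at a background of 7.51% of gene starts in PBS and 9.07% in OVA. With doublets kept the count was 3 in OVA, where Gli3 stood at 0.98. Smo had 0.49 in both libraries (0.29 to 0.70 and 0.27 to 0.72). Ptch1 had 0.13 (-0.0075 to 0.27) and -0.24 (-0.37 to -0.11). Peaks were called in each library separately, and the peaks summed at a gene start covered from 858 to 1909 bases in PBS and from 864 to 2568 in OVA.

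Accessibility and RNA did not rank the stromal classes in the same way. The Hhip start stood at 30.7 peak CPM (24.9 to 37.5) and 30.5 (23.8 to 38.4) in the cluster led by Nrxn3 and Zfp536 and at 29 (13.9 to 53.3) and 26.5 (16.2 to 40.9) in that led by Nlgn1 and Csmd1. Fibroblast-like nuclei had 11.1 (8.49 to 14.2) and 13.9 (11.5 to 16.7), and AT1-like nuclei 2.97 and 1.68. Mast or basophil-like nuclei, at 16.2 (9.08 to 26.7) and 9.59 (5.48 to 15.6), and ILC2-like nuclei, at 11.9 (8.06 to 16.8) and 10.4 (7.3 to 14.3), overlapped Fibroblast-like nuclei at the Hhip start. The Gli2 start was as accessible in Pericyte-like nuclei, at 62.5 (46.1 to 82.8) and 42 (30.6 to 56.2), as in any stromal class, although these nuclei held 1 and 5 Gli2 UMIs. The Ptch1 start stood between 93.7 and 130 peak CPM over the stromal classes in PBS and at 108 in AT1-like and 87.3 in AT2-like nuclei. In OVA it was somewhat less accessible in all stromal nuclei, at 114 peak CPM, than in all epithelial nuclei, at 135.

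The Shh start itself had no peak within 2 kb in either library. The nearest one, chr5:28469388-28470369, began 2.13 kb upstream of the start and had 112 epithelial counts in PBS (15.3 peak CPM) against 14 in stromal nuclei (1.21 peak CPM). Shh is known to be controlled from a long stretch of flanking sequence, so peaks within 1000 kb were examined, a window set after the data had been seen. A peak was taken as epithelial where it had at least 30 epithelial counts and its level was at least 4-fold that of stromal and of immune nuclei. Of the peaks near Shh with enough counts, 17 of 38 in PBS and 15 of 30 in OVA passed, against 26.5% and 21.1% of all such peaks. In the stromal direction 0 of 16 and 1 of 17 passed, against 18.3% and 18.7% of all.

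There were 13 epithelial peaks near Shh that passed in both libraries. A pair lay in an intron of Shh, at chr5:28458734-28459337 and chr5:28459443-28459904, and the first of them was the most accessible of the 13, with 36.6 and 44.6 peak CPM in epithelial nuclei against 1.64 and 1.85 in stromal nuclei. Upstream, a peak at -34 kb (chr5:28500824-28501732) had 189 and 137 epithelial counts against 1 and 2 stromal counts, and one at -96.5 kb (chr5:28563190-28564243) had 193 and 132 against 6 and 2. Farther upstream lay peaks at -318, -513 and -616 kb, all between genes, and the last (chr5:29082959-29084101) stood at 28 and 25.7 peak CPM in epithelial nuclei against 0.866 and 0.571 in stromal nuclei. On the other side of Shh, peaks at 53.2 and 96.3 kb overlapped an exon and an intron of Rbm33, and 3 peaks between 407 and 424 kb lay between genes. Which gene each peak acts on was not measured here.

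**Figure D3:**
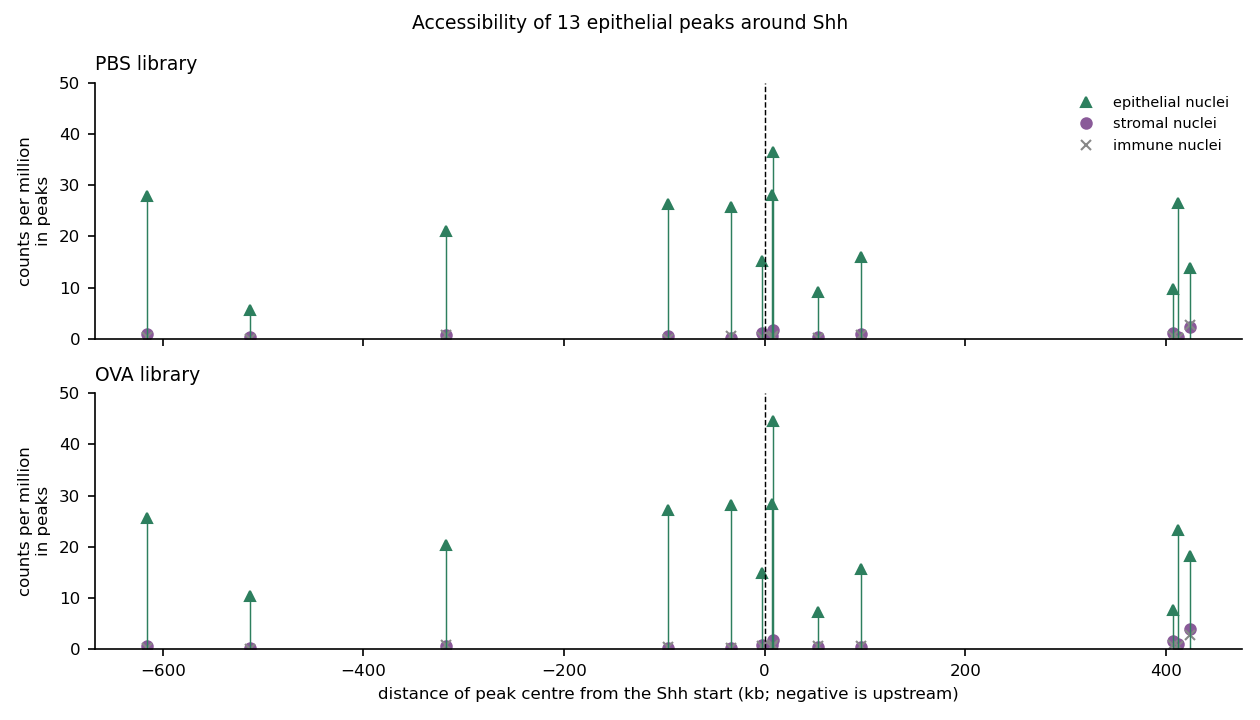
The 13 peaks more accessible in epithelial nuclei in both libraries, by the distance of the peak centre from the Shh start in kb (negative is upstream, dashed line at the start), with peak CPM in epithelial (triangles with stems), stromal (circles) and immune nuclei (crosses). Epithelial values run from 5.6 to 36.6 in PBS and from 7.19 to 44.6 in OVA, and the highest stromal value is 3.99.

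The same rule was applied within 100 kb of the other 6 genes, and the peaks named here passed it in both libraries at the same place. Of all peaks with enough counts, 18.3% in PBS and 18.7% in OVA passed as stromal, and 26.5% and 21.1% as epithelial. Near Gli2, 6 of 13 peaks passed as stromal in PBS and 6 of 12 in OVA, among them 3 shared ones in its introns, and 0 as epithelial. The strongest (chr1:118976346-118977277, 76.8 kb into the gene) held 670 and 886 stromal counts, or 58 and 63.2 peak CPM, against 5 and 12 epithelial counts. Hhip had 1 stromal intronic peak (chr8:80020302-80021151) with 56 and 95 stromal and 0 epithelial counts, and 2 epithelial peaks at -59.7 and -62.7 kb, with 25.1 peak CPM each in epithelial nuclei of PBS. Ptch1 had 1 stromal peak over an exon at 42.6 kb and 1 epithelial peak in an intron at 30.5 kb, the latter at 13.4 and 19.5 peak CPM in epithelial nuclei against 1.47 and 2.14 in stromal nuclei. Gli3 had stromal peaks at -22.4 and -36.2 kb and an epithelial intronic peak at 87.5 kb, with 101 and 43 epithelial counts against 8 and 13 stromal counts. Smo had 1 stromal peak at -8.87 kb, and Gli1 had 2 stromal peaks that overlapped Ddit3 and Dctn2. Of the peaks with enough counts these were 1 of 10 and 1 of 12 near Smo and 2 of 17 and 2 of 19 near Gli1. Both shares lay below the stromal background. Near Ptch1, Hhip and Gli3 at most 15 peaks had enough counts in either direction, and the shares that passed ran from 14.3% to 66.7%.

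Of 51 further pathway genes, 17 had at least 100 UMIs over stromal and epithelial nuclei in each library, and 8 of them were at least 2-fold higher in stromal nuclei in both libraries while 0 were lower, at the background of 15.8% higher and 14.7% lower given above. Among the genes listed as co-receptors or other surface proteins that bind the ligand, 2 of 2 passed. Boc, which binds the ligand beside Ptch1, stood at 128 against 5.78 CPM in PBS and 140 against 3.58 CPM in OVA. Gpc3, a heparan sulfate proteoglycan that binds Hedgehog, stood at 291 against 118 CPM and 314 against 111 CPM. Among the genes of ligand processing and release, 2 of 3 passed. Scube2, a secreted protein that helps to free the lipid-bearing ligand, was at 60.6 against 4.62 CPM and 80.6 against 7.61 CPM, and the glypican Gpc6 at 276 against 29.5 CPM and 339 against 30.4 CPM.

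Among the mesenchymal target genes, 2 of 3 passed. Myocd, a cofactor of smooth muscle gene expression, stood at 105 against 6.94 CPM in PBS and 72.8 against 2.69 CPM in OVA. The growth factor gene Igf1 stood at 219 against 5.2 CPM and 149 against 5.37 CPM. Of 7 signal transduction genes 1 passed, a share near the background, and it was the protein kinase A regulatory subunit Prkar1a at 159 against 60.7 CPM and 202 against 81 CPM. Of 2 primary cilium genes with enough UMIs 1 passed, the ciliary GTPase gene Arl13b at 75.3 against 17.9 CPM and 101 against 34 CPM. The other ligands were scarcely read, with 0 Ihh UMIs in stromal and epithelial nuclei of both libraries and at most 2 Dhh UMIs in any of these sums.

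Across the 11 classes with at least 50 nuclei in each library, taken in both libraries as 22 points, the patterns of the members were compared by the Pearson correlation of log2(CPM + 10). Among the 6 response genes it ran from 0.52 between Smo and Hhip to 0.91 between Ptch1 and Gli3, and between Shh and these genes from -0.36 to 0.077. The points share libraries and depth and are not independent, so these values are descriptions only. Of 6018 genes, those most like Shh were Eps8l2, Gramd2 and Slc4a5 (0.98 each). Those most like Ptch1 were Ror2, Ltbp4 (0.92 each) and Nlgn2 (0.91), those most like Hhip were Opcml (0.93), Palld and Mmp2 (0.91 each), and those most like Smo were Egr1, Ulk2 (0.93 each) and Grb10 (0.92). For Gli1 they were Abi3bp (0.96), Mgp and Tmtc1 (0.95 each), for Gli2 Adamts2, Trabd2b and Zfpm2 (0.96 each), and for Gli3 Nlgn2, Csrp1 (0.95 each) and Ror2 (0.94).

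Between the OVA and the PBS library, epithelial Shh differed by less than counting error. The log2 ratio of OVA over PBS was 0.058 (-0.45 to 0.57) over all gene UMIs and -0.16 (-0.67 to 0.35) over nuclear-gene UMIs, the scale that leaves out mitochondrial genes. It was -0.14 (-0.82 to 0.56) in AT1-like and -0.076 (-1.06 to 0.91) in AT2-like nuclei. A difference inside these intervals was not detectable at this depth. Of the 3 genes with at least 100 epithelial UMIs over both libraries (Shh, Ptch1 and Gli3), 0 passed 2-fold, at a background of 5.2% of genes higher and 0.0396% lower. The median ratio of all genes tested was 0.28 in epithelial and 0.24 in stromal nuclei over all gene UMIs, and 0.061 and 0.03 over nuclear-gene UMIs.

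In stromal nuclei 0 of the 6 response genes passed 2-fold, at a background of 1.7% of genes higher and 0.43% lower. Smo and Ptch1 differed in opposite directions, each beyond counting error on both scales. The share of all genes that differ beyond counting error was not computed. Whether these differences stand out from other genes was therefore not tested. Smo stood at 38.6 CPM (81 UMIs) in PBS and at 63.7 CPM (253 UMIs) in OVA, a log2 ratio of 0.72 (0.36 to 1.10), or 0.51 (0.14 to 0.89) over nuclear-gene UMIs. Its ratio was 0.96 (0.45 to 1.51) in Fibroblast-like nuclei, and 0.84, 0.76 and 1.21 within the Fibroblast-like clusters led by Bmp8a and Mfap4, by Col25a1 and Cemip and by Wnt2 and Bmp8a, where each interval held 0. Smo was 0.82 (-0.15 to 1.86) in the cluster led by Nrxn3 and Zfp536 and 0.38 (-0.82 to 1.63) in that led by Pcdh9 and Abca8a. In Pericyte-like nuclei it was 0.15 (-1.53 to 2.05), and in the cluster led by Ctnna3 and Ntrk3 -0.028 (-1.68 to 1.74). These intervals also held 0. Ptch1 stood at 208 CPM (437 UMIs) in PBS and 172 CPM (682 UMIs) in OVA, a log2 ratio of -0.28 (-0.45 to -0.10), or -0.49 (-0.67 to -0.32) over nuclear-gene UMIs. Over all gene UMIs it was -0.22 (-0.47 to 0.047) in Fibroblast-like nuclei and -0.20 (-0.52 to 0.12) in the cluster led by Nrxn3 and Zfp536. It was 0.20 (-0.55 to 0.96) in the cluster led by Pcdh9 and Abca8a, 0.32 (-0.71 to 1.44) in Pericyte-like nuclei and 0.19 (-1.16 to 1.65) in the cluster led by Ctnna3 and Ntrk3, and each of these 3 intervals held 0. Within the Fibroblast-like clusters it was -0.39 (-0.85 to 0.071) in that led by Bmp8a and Mfap4 and -0.48 (-0.87 to -0.08) in that led by Col25a1 and Cemip, and the cluster led by Wnt2 and Bmp8a held 34 PBS UMIs and 1 OVA UMI. AT2-like nuclei also held less Ptch1 in OVA, with a log2 ratio of -0.98 (-1.66 to -0.32) from 59 and 30 UMIs, while in AT1-like nuclei it was -0.13 (-0.69 to 0.44).

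The other response genes did not differ between the libraries beyond counting error on both scales. Stromal Hhip had a log2 ratio of -0.018 (-0.12 to 0.083) over all gene UMIs and -0.23 (-0.33 to -0.13) over nuclear-gene UMIs. Gli3 had 0.30 (0.063 to 0.53) and 0.082 (-0.15 to 0.32). Gli2 had 0.27 (-0.02 to 0.56) and 0.055 (-0.23 to 0.35), and Gli1 0.42 (-0.19 to 1.06) and 0.20 (-0.40 to 0.84). In all Fibroblast-like nuclei Hhip was 0.43 (0.25 to 0.62), but within the clusters led by Bmp8a and Mfap4 and by Col25a1 and Cemip it was 0.057 (-0.27 to 0.39) and 0.0098 (-0.25 to 0.28), and the share of the latter cluster differed between the libraries as given above. Promoter accessibility in stromal nuclei, over peaks found in both libraries, had log2 ratios between -0.13 (Gli2) and 0.098 (Smo). For Ptch1 it was -0.12 (-0.23 to -0.0017). Since each group was 1 dam and 1 library, a difference between mothers, pools or libraries cannot be told apart from one between OVA and PBS.

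**Figure D4:**
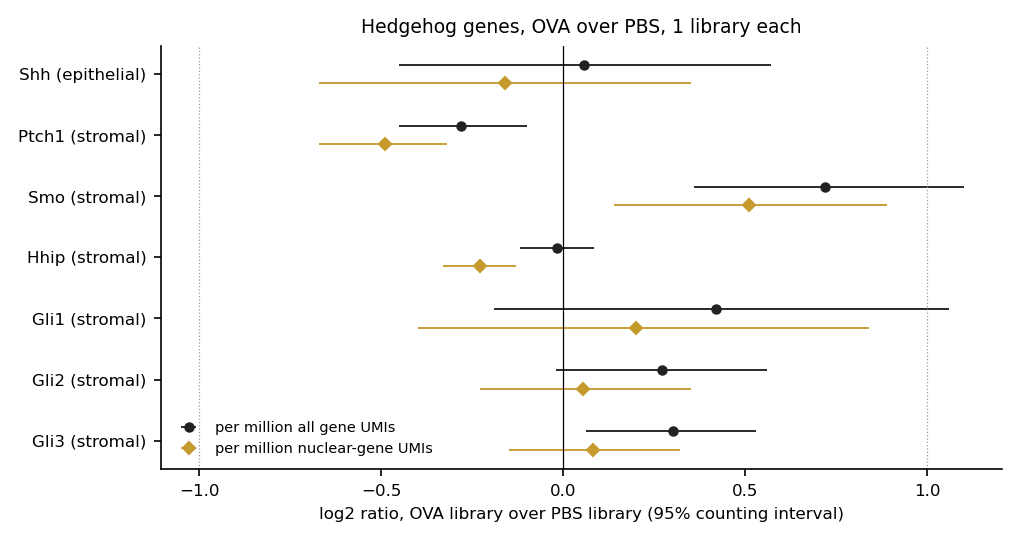
Log2 ratio of OVA over PBS for Shh in epithelial nuclei and the 6 response genes in stromal nuclei, over all gene UMIs (circles) and over nuclear-gene UMIs (diamonds), with 95% counting intervals and 1 library per group. Dotted lines mark 2-fold. Smo lies right of 0 (0.72 and 0.51) and Ptch1 left of it (-0.28 and -0.49) on both scales. The share of all genes whose interval leaves out 0 was not computed.

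Among the wider pathway lists, 0 of 31 genes with enough stromal UMIs passed 2-fold between the libraries in stromal nuclei. In epithelial nuclei 2 of 19 passed, both of them primary cilium genes and both higher in OVA, against the 5.2% of all genes given above. With 19 genes this count is close to the background, and the 2 genes are named here after their values were seen. Ift88, a part of the intraflagellar transport complex, stood at 26.6 and 61.8 CPM, and Dync2h1, the motor of retrograde transport in cilia, at 95.9 and 196 CPM. Ciliated-like nuclei gave 128674 of 1730164 epithelial UMIs in PBS and 346196 of 2234451 in OVA, and the part of this in the cilium gene levels was not tested.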

How the data were processed

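Lungs of PBS and OVA fetuses were profiled by single-nucleus RNA and accessible chromatin sequencing, with 1 library per group as given by the labels. The deposited counts are raw: whole UMIs per gene and transposition counts per peak as the authors obtained them with Cell Ranger ARC 2.0.1 on mm10 (GRCm38), with peaks called in each library. The authors applied no normalization to them.

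The limits of 200 genes or more and 60% mitochondrial UMIs or less were taken from the study. The study also kept only nuclei between 1000 and 25000 UMIs and between 1000 and 100000 chromatin counts. Here these count limits were run only as an alternative. Its limits on nucleosome signal and on enrichment at gene starts were not applied. Fibroblast-like nuclei of PBS, for example, had a median of 964 UMIs. As doublets, 310 PBS (6.78%) and 251 OVA (4.78%) nuclei were removed by their similarity to simulated ones. The libraries were clustered together (3000 variable genes, 30 principal components, 15 neighbours, Leiden resolution 1.0), without mitochondrial and Hedgehog pathway genes. A name needed 3 fixed markers and a mean log2 lead of 1.0 over the next type. UMIs were summed over nuclei and divided by all gene UMIs (CPM). Sums have exact Poisson intervals, shares Clopper-Pearson intervals and ratios conditional binomial intervals, which cover counting error only. No test or p-value is given, since a group is 1 library. A call needed 100 UMIs over both sums, a 2-fold ratio and an interval without equality, over all genes. The ratio code recovered known changes in simulated data.

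The members, lists, markers and comparisons were chosen with earlier results of these data known. The text names the 7 genes, pathway genes past 2-fold between stromal and epithelial nuclei in both libraries, and the 3 genes with the pattern most like each member. Promoters were taken from RefSeq (GRCm38.p6) and gene positions from GENCODE M21. Promoters of Shh and Gli1 were not used here. Analyses used Python 3.11.15, scipy 1.17.1, scikit-learn 1.9.0 and leidenalg 0.10.2. Alternatives were another denominator, doublets kept, stricter filters, a gate per nucleus, equal weight per nucleus, thinning, another minimum count and other peak windows.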

Additional observations from a re-analysis of the deposited data

How the results depend on the processing

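No paired analysis was possible because the groups had 1 library each. Of 118 alternative values of the main results, 90 stayed within the counting interval or within 1.5 times the count. The lower stromal level of Shh held under every alternative run, but its log2 ratio was -3.07 (PBS) and -6.73 (OVA) with at most 20% mitochondrial UMIs and -2.74 (OVA) after thinning. A sum of 0 was set to 3 counts in these ratios, so those resting on few UMIs can be bounds. With doublets kept, the stromal over epithelial ratio of Hhip was 3.78 (PBS) and 4.96 (OVA). The ratio of OVA over PBS was less stable. Gli3 reversed to -0.21 at 20% mitochondrial UMIs and was 0.053 once centred on all genes. Shh was -0.72 with a gate per nucleus and -0.55 after thinning, against a main interval of -0.45 to 0.57. No interval was computed for these alternative values, and thinning leaves fewer UMIs. Ptch1 was -0.49 over nuclear-gene UMIs and -0.52 once centred. Hhip was -0.23 over nuclear-gene UMIs, -0.40 at 20% mitochondrial UMIs, -0.19 after thinning, -0.26 once centred and, in a setting chosen after seeing the data, -0.13 without the cluster led by Wnt2 and Bmp8a. The causes were not tested. The ratio of Smo ran from 0.43 to 0.8 and that of Ptch1 from -0.52 to -0.16 over the alternatives run.

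Within 100 kb instead of 2 kb of the start, 1 (PBS) and 2 (OVA) response genes were at least 2-fold more accessible in stroma, and the ratio reversed for Hhip (-1.37 and -1.0), for Smo in the PBS library (-0.062) and for Ptch1 in the OVA library (0.038). A minimum of 30 UMIs, which tests more genes, gave 1540 genes higher and 1580 lower for stromal over epithelial nuclei in the PBS library and 1964 and 2148 in the OVA library, 250 and 141 for stromal OVA over PBS, and 587 and 76 for epithelial OVA over PBS. Over nuclear-gene UMIs the stromal OVA over PBS counts were 37 and 51 against 107 and 27, and the epithelial ones 143 and 7 against 263 and 2. Shh (74 UMIs in PBS and 101 in OVA over all kept nuclei) and Gli1 (37 and 85) are limited by depth.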
